A study of Mus musculus with 12 samples.

Results

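Glutathione is a tripeptide of glutamate, cysteine and glycine that keeps proteins and membranes reduced. Glutamate-cysteine ligase (a catalytic subunit from Gclc and a modifier subunit from Gclm) makes the first bond, glutathione synthetase (Gss) adds glycine, and glutathione reductase (Gsr) returns the oxidized form to use. Glutathione S-transferases (GSTs) join glutathione to reactive compounds such as lipid aldehydes, gamma-glutamyl transferases split it outside the cell so that its amino acids can be taken up again, and glutaredoxins remove it from protein thiols. The genes described here are the protein-coding genes with symbols of the soluble GST classes alpha, kappa, mu, omega, pi, theta and zeta or of the microsomal GSTs, and 14 named genes of glutathione synthesis, reduction, breakdown and transfer, including the sigma-class GST gene Hpgds. This rule found 39 genes of the 39179 in the deposited table.

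RNA came from prostate tissue of mice aged 4 months of mixed C57Bl/6J and 129/SvImJ strain, and every mouse received paraquat, a herbicide that cycles electrons to oxygen and so produces superoxide. There were 6 libraries from mice homozygous null (-/-) for the gene under study and 6 from wild-type mice (+/+), and all values below therefore compare genotypes in the presence of paraquat. The labels do not say how the null allele was made or whether each library is 1 animal, so p-values measure the spread between these libraries, which may be partly technical. Values are the normalized log2 values of the authors, and each difference is null minus wild type on that scale, where a difference of 1 is a doubling.

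Libraries 1 to 3 and 4 to 6 of each genotype formed 2 sets of closely similar profiles when clustered on their values. Within a set, 2 libraries differed by a median of 0.0776 to 0.141 regardless of sign, and across the sets of 1 genotype by 0.274 to 0.352. Estimated depth was 14.8 to 20.5 M reads in null libraries and 15.3 to 21.7 M reads in wild-type libraries. Of 8 luminal epithelial markers, all 8 were above the filter in the table, and Krt8 had medians of 12.33 in null and 12.61 in wild-type libraries, but the tissue pieces were not alike in other respects. Seminal vesicle genes (8 of 8 tested, Svs2 among them) together took 16.4% to 16.6% of the normalized total in null libraries 1 to 3, 0.717% to 0.729% in null libraries 4 to 6, and at most 0.00116% in wild-type libraries. These genes split between the null sets. Means of Svs3a, Svs3b and Svs4 were 13.65, 11.65 and 16.43 in null libraries 4 to 6. In null libraries 1 to 3 these means were lower, at 11.78, 11.38 and 14.58. Svs2, Svs5, Svs6, Pate4 and Akr1b7 were higher in null libraries 1 to 3. The 9 markers of vas deferens and epididymis were not alike. Crisp1 had a mean of 14.23 in the first null set (libraries 1 to 3). Its mean was 3.61 in the second (libraries 4 to 6), and no wild-type library exceeded 2.62. Crisp4, Lcn5, Lcn8, Rnase10 and Cst8 stayed below 4 in every library. Defb1 was called lower by both fits (difference -1.21). Spink8 (2.32) and Adam7 (0.82) were called higher over the 12 libraries alone. Prostate secretory genes (11 of 11 tested) took 1.32% to 1.50% in null libraries and 9.27% to 10.9% in wild-type libraries. Of these 11 genes, 8 were called lower over the 12 libraries. Tcaf3 (difference 1.56) was called higher, and Apof (-0.34) and Nkain4 (-0.14) were not called. The 8 adipocyte markers took 0.0186% to 0.0204% in null libraries and 0.00406% to 0.00656% in wild-type libraries. Basal epithelial markers took 0.0657% to 0.0751% in null libraries and 0.0363% to 0.0389% in wild-type libraries, and Trp63, Itgb4 and Bcam among them were called higher by both fits. Over the 12 libraries 6 of these 8 markers were called higher in the null, and Krt14 (difference -0.59) and Itga6 (-0.25) were called lower. Fibroblast markers took 0.0937% to 0.110% in null libraries and 0.0528% to 0.0687% in wild-type libraries, and endothelial markers 0.0156% to 0.0215% and 0.0102% to 0.0109%. In each of these 2 lists 6 of 8 markers were called higher over the 12 libraries. The fibroblast marker Fbln1 (difference -0.18) and the endothelial marker Emcn (-1.47) were called lower, and Dpt and Cldn5 were not called. In bulk tissue fewer cells of a type and less RNA per cell cannot be told apart, and the part of these other tissues in the results below was not tested beyond the values given.

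Every gene was tested with limma in 2 fits, over the 12 libraries and over the means of the 4 sets, with Benjamini-Hochberg adjustment over 16197 genes, those reaching 4 in no fewer than 6 libraries. The words rose and fell are kept for genes with an adjusted p under 0.05 in both fits, and "called over the 12 libraries" claims the first fit alone. A p is given "by library" for the first fit and "by set" for the second. Of the 39 genes, 33 passed the filter. The fit over the 12 libraries called 24 of them, 14 higher and 10 lower in the null, which is 72.7% of the 33 where the same fit called 65.9% of all genes tested. Scaling by library totals turned this split into 17 higher and 6 lower. Both fits called 4 genes (12.1%, against 4.09% of all genes): Mgst1 and Gsta3 rose (against 2.15% of all genes higher in both), and Gss and Mgst2 fell (against 1.93% lower in both). The genotypes did not overlap for 18 of the 33 (54.5%, against 44.2% of all genes), with the null higher for 12 and lower for 6 (against 21.5% and 22.7% of all genes). The median difference was -0.04 over the 33 genes and 0.05 over all genes, while the median size of a difference regardless of sign was 0.78 for the 33 genes and 0.48 for all genes, so the genes of glutathione metabolism differed in opposite directions.

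**Figure D1:**
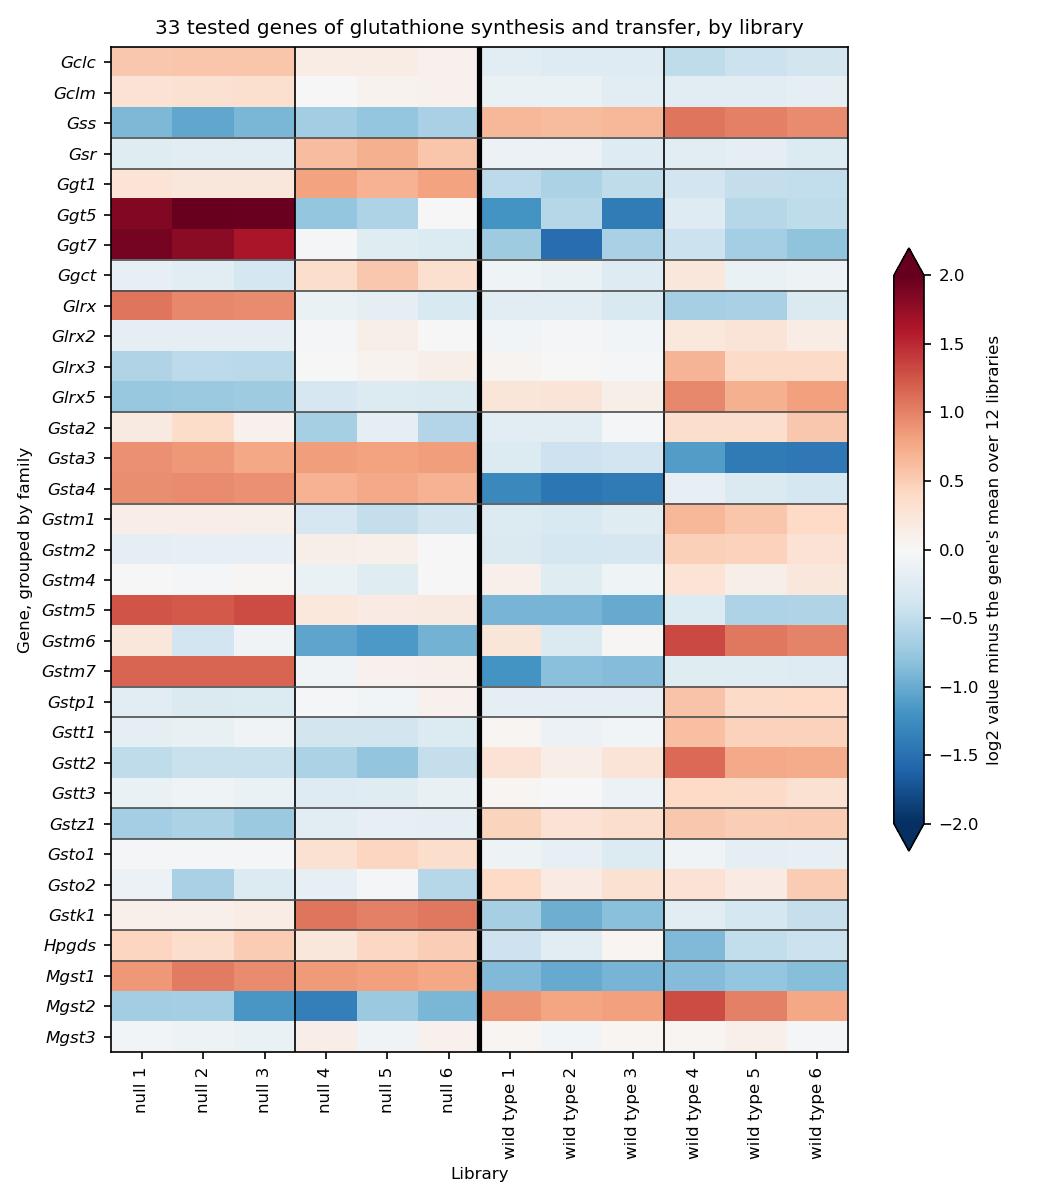
Heat map of the 33 tested genes (rows, grouped by family) in the 12 libraries (columns, null left of wild type, thin lines between sets); colour is the log2 value minus the gene's mean over all libraries, cut at 2 in either direction. Mgst1, Gsta3 and Gsta4 are high across all 6 null libraries, Gss, Mgst2 and Gstz1 are high across all 6 wild-type libraries, and Ggt5, Ggt7 and Glrx stand out in null libraries 1 to 3.

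**Figure D2:**
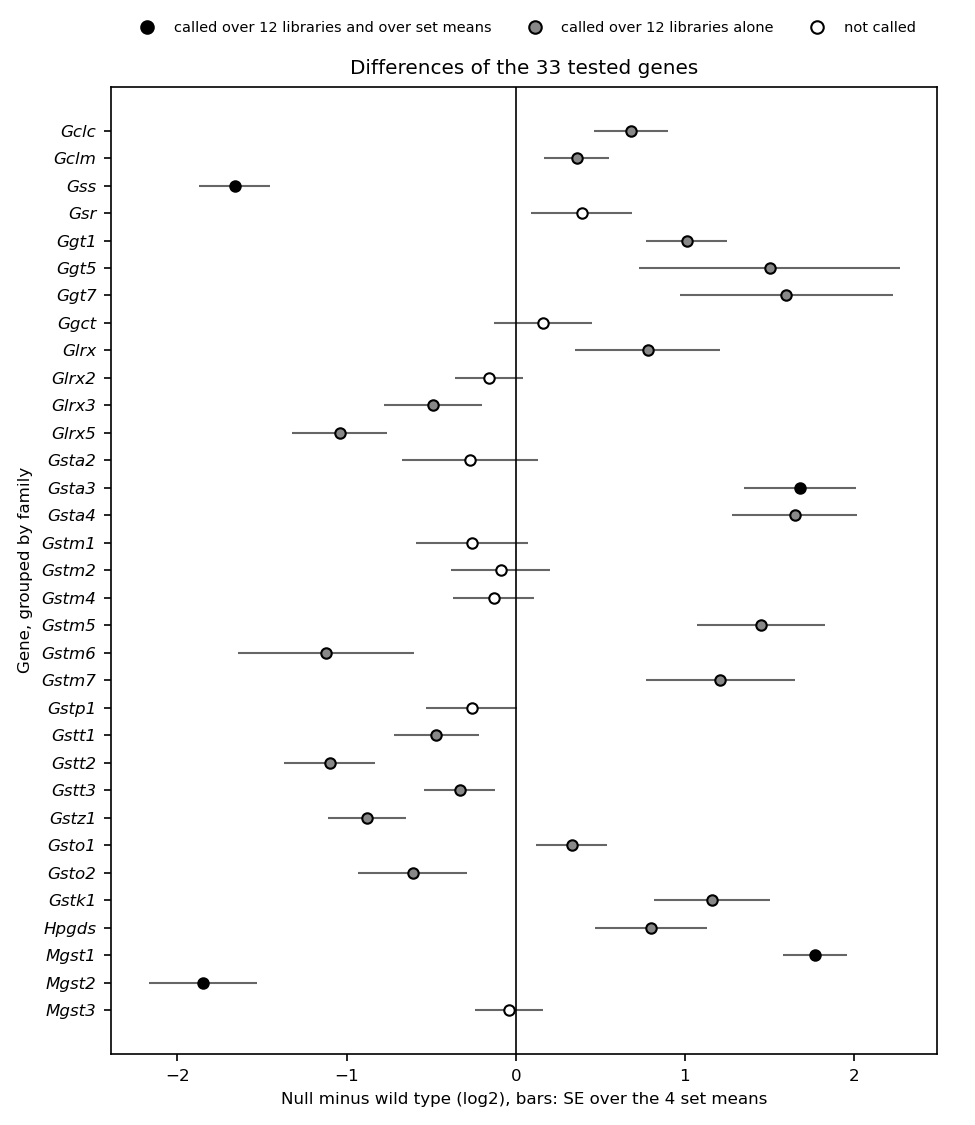
Null minus wild type (log2) for the 33 tested genes, with bars for the standard error of the fit over the 4 set means. Filled black points are the 4 genes called by both fits (Gss, Gsta3, Mgst1, Mgst2), grey points were called over the 12 libraries alone, and white points were not called.

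The 3 synthesis genes did not move together: the ligase subunits were higher and the synthetase was lower in null prostates. Gss, which encodes the enzyme that completes glutathione (ENSMUSG00000027610, GRCm38 chromosome 2, 155563181 to 155592810), had values of 8.89, 9.09 and 9.28 in the lowest, median and highest null library, against 10.56, 10.74 and 11.00 in wild-type libraries. The highest null library was thus 1 unit or more below the lowest wild-type library. Gss fell by 1.66 (3.16-fold, SE 0.21; limma adjusted p = 2.00e-08 by library and 0.0170 by set). Without wild-type libraries 4 to 6 the Gss difference was -1.48 and not called by set (adjusted p = 0.135). Gclc, which encodes the catalytic subunit of the rate-limiting ligase, had 9.99, 10.26 and 10.47 in null libraries, against 9.39, 9.59 and 9.70 in wild-type libraries. Its difference of 0.68 was called over the 12 libraries only (limma adjusted p = 9.34e-05 by library and 0.112 by set). Gclm, the modifier subunit gene, had 10.94, 11.11 and 11.25 in null libraries, against 10.71, 10.73 and 10.80 in wild-type libraries, a difference of 0.36 (limma adjusted p = 3.58e-04 by library and 0.235 by set). With the trend of values along transcript length removed, the Gclm difference was 0.08 (adjusted p = 0.217 over the 12 libraries). Both ligase genes were highest in null libraries 1 to 3, with set means of 10.46 for Gclc and 11.24 for Gclm, and were still above every wild-type library in null libraries 4 to 6.

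Gss lies 44.9 kb from Ggt7 on chromosome 2, and the lipid-metabolism gene Acss2 lies between them on the opposite strand and shares 395 exon bases with Gss and 197 with Ggt7 in the annotation. No source used here says whether strand was used in counting, and reads in those bases could belong to either gene. Acss2 itself had 8.98, 9.17 and 9.43 in null libraries, against 9.68, 9.74 and 9.84 in wild-type libraries, a difference of -0.57 (limma adjusted p = 9.22e-05 by library and 0.133 by set). The Gss difference was thus larger than that of Acss2.

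Whether glutathione reductase was called depended on the processing, and as processed here it was not. Gsr had 10.04, 10.45 and 11.00 in null libraries, against 10.01, 10.07 and 10.17 in wild-type libraries, so the genotypes overlapped. Its set means were 10.05 in null libraries 1 to 3 and 10.91 in null libraries 4 to 6, against 10.13 and 10.05 in the wild-type sets. Null libraries 4 to 6 therefore stood above wild type and null libraries 1 to 3 did not. The difference of 0.39 had a limma adjusted p of 0.0620 by library and 0.388 by set. Other processings called Gsr higher over the 12 libraries: the difference was 0.71 with library totals (adjusted p = 0.00502), 0.54 with the 50 most abundant genes left out of the totals (0.00999), 0.47 with upper-quartile centring (0.0270), 0.49 with quantile normalization (0.0244) and 0.50 with the length trend removed (0.0160). It was also called without any 1 of null libraries 1, 2 and 3 (0.48 each, adjusted p = 0.0277 to 0.0301). By library it was 0.82 without null libraries 1 to 3 (adjusted p = 2.74e-06 over the remaining libraries) and -0.04 without null libraries 4 to 6 (adjusted p = 0.592).

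**Figure D3:**
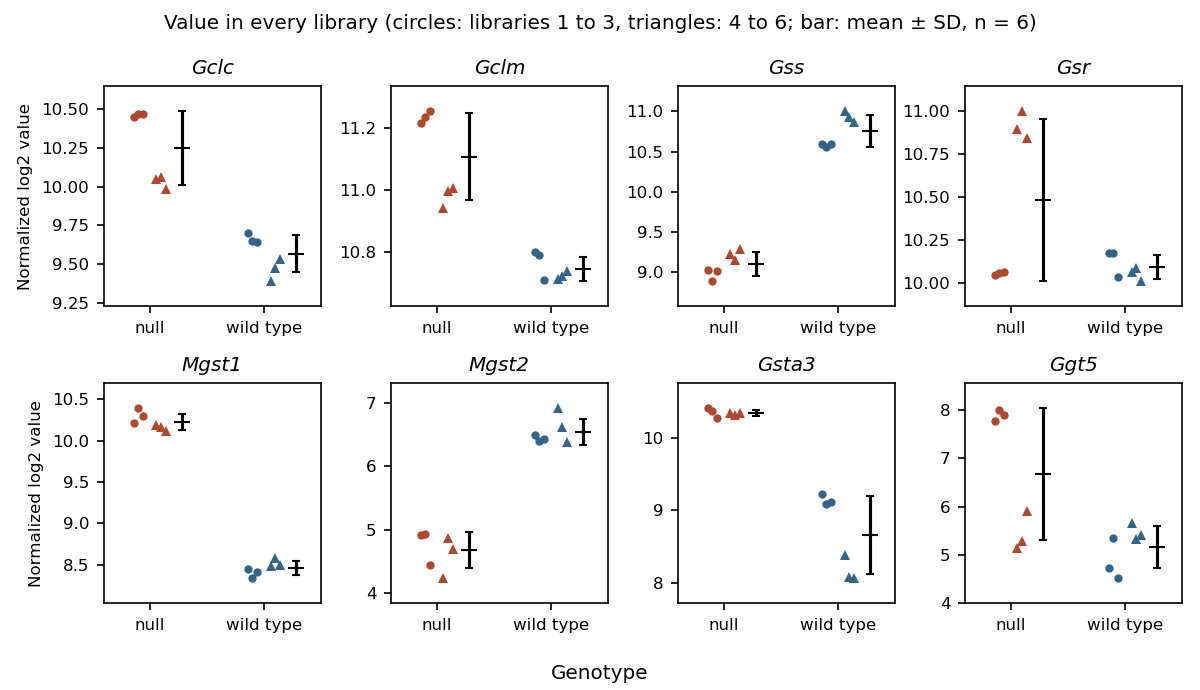
Normalized log2 value in every library for 8 genes, null left of wild type, with circles for libraries 1 to 3, triangles for libraries 4 to 6 and a black bar for the mean ± SD of the 6 libraries; the vertical axes differ between panels and do not start at 0. Gss and Mgst2 are lower and Mgst1 and Gsta3 higher in every null library, while Gsr and Ggt5 are split between the null sets.

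Promoters of these genes were searched for TGACNNNGC, the core of the antioxidant response element, which is bound by the transcription factor NRF2 (Nfe2l2) with small Maf proteins and is known from GST and ligase genes. RefSeq promoter windows of GRCm38.p6, from 250 bases before to 50 after a start site, were in hand for 34 of the 39 genes, and windows for Gclc, Gsr, Ggt5, Gsta4 and Gstt2 were not used here. On either strand, 7 of the 34 genes (20.6%) held a match in at least 1 window, against 14.0% of all genes with a window. It was decided to print the matches after the calls over the 12 libraries were seen. Each is read 5′ to 3′ on the strand that carries the motif, with the motif in capitals.
Gclm: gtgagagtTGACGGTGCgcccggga
Gsta3: ctcaggcaTGACATTGCatttttct
Gstm5: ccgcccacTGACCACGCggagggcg
Gstm7: tgaagaccTGACAAAGCgaagccaa
Mgst1: ccgcctccTGACCGTGCcaagcccc
Ggt1: cacaagccTGACGCTGCgcctcctt
Ggt1: cccagcagTGACCCAGCtcctccct
Ggct: ccgcccacTGACGTCGCttttctat
Ggct: tctgtgctTGACGCTGCtggcgtgg
The motifs lie at chr3:122245423-122245431 for Gclm, chr1:21240464-21240472 for Gsta3, chr3:107895812-107895820 for Gstm5, chr3:107931735-107931743 for Gstm7 and chr6:138140471-138140479 for Mgst1. Those of Ggt1 lie at chr10:75571477-75571485 and chr10:75568626-75568634, in windows of 2 of its 4 annotated starts, and the window of another start held a match at its very end. The Ggct motifs lie at chr6:54993033-54993041 and chr6:54992854-54992862. Of the 7 genes with a match, 6 were called higher over the 12 libraries and Gsta3 and Mgst1 by both fits, while of 21 tested genes with a window and no match 5 were called higher and 9 lower. For all genes tested the shares called over the 12 libraries were 34.1% higher and 31.8% lower. The share called higher among all 3781 genes with a match was not computed. A match is a run of letters and not a measured binding site, and this split was not tested.

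The 250 bases upstream of the starts of Mgst1 and Gstm5 are given in full as the promoters of a membrane-bound and a soluble enzyme with a match near the start. The Mgst1 match is on the opposite strand and so appears as its reverse complement in capitals.
Mgst1 (GRCm38.p6, chr6:138140277-138140526, plus strand): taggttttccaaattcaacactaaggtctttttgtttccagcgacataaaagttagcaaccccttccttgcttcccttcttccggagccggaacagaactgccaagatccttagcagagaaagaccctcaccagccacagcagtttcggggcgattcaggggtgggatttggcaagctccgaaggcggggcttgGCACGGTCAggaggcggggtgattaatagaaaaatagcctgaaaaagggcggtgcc
Gstm5 (GRCm38.p6, chr3:107895604-107895853, plus strand): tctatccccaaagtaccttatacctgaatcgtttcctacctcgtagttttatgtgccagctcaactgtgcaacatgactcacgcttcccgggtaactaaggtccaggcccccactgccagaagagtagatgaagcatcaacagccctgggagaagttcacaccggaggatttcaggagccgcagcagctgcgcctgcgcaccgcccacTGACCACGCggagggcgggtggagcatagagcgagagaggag

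The microsomal GSTs, small membrane enzymes of a family apart from the soluble classes, differed in both directions. Mgst1, which encodes a transferase and peroxidase of the endoplasmic reticulum and outer mitochondrial membrane (ENSMUSG00000008540, GRCm38 chromosome 6), had 10.12, 10.20 and 10.39 in null libraries, against 8.34, 8.47 and 8.58 in wild-type libraries. It rose by 1.77 (3.40-fold, SE 0.19; limma adjusted p = 2.18e-10 by library and 0.0109 by set), and its 4 set means were 10.30 and 10.16 in the null against 8.40 and 8.52 in wild type. By set the call was lost without wild-type libraries 1 to 3 (difference 1.71, adjusted p = 0.0513) and without wild-type libraries 4 to 6 (1.82, adjusted p = 0.0915). Mgst2, which encodes an enzyme that can join glutathione to leukotriene A4, had 4.24, 4.78 and 4.93 in null libraries, against 6.37, 6.45 and 6.91 in wild-type libraries. It fell by 1.85 (SE 0.32; limma adjusted p = 5.33e-07 by library and 0.0346 by set). The null values of Mgst2 lie just above the filter value of 4, so the size of this difference is less certain than its direction. With the length trend removed the Mgst2 difference was -1.28 and no longer called over the set means (adjusted p = 0.0842). By set it was also not called with the 50 most abundant genes left out of library totals (-1.71, adjusted p = 0.0532), nor without wild-type libraries 1 to 3 (-1.96, adjusted p = 0.0837) or 4 to 6 (-1.75, adjusted p = 0.231). Mgst3 had 8.80, 8.88 and 9.07 in null libraries and 8.89, 8.97 and 9.03 in wild-type libraries and was not called (difference -0.04). That near-zero value depended on scaling, since with library totals it was 0.27 and with the length trend removed 0.41, both called over the 12 libraries (adjusted p = 0.00524 and 4.26e-04).

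Among alpha-class genes, whose products reduce lipid peroxides and conjugate lipid aldehydes, Gsta3 and Gsta4 were high in the null. Gsta3 (ENSMUSG00000025934, GRCm38 chromosome 1) had 10.28, 10.34 and 10.41 in null libraries, against 8.06, 8.73 and 9.22 in wild-type libraries. The null libraries were nearly level with one another, whereas the wild-type sets averaged 9.14 and 8.17. Gsta3 rose by 1.68 (3.21-fold, SE 0.33; limma adjusted p = 1.18e-05 by library and 0.0475 by set). The second of these values was 0.0509 without wild-type library 4, 0.0593 with the 50 most abundant genes left out of library totals, 0.0812 without limma's trend and 0.171 without wild-type libraries 4 to 6, where the difference was 1.20. Gsta4, which encodes the enzyme for 4-hydroxynonenal, a main aldehyde of lipid peroxidation, had 10.22, 10.36 and 10.46 in null libraries, against 8.08, 8.70 and 9.36 in wild-type libraries. Its difference of 1.65 was called over the 12 libraries (limma adjusted p = 4.38e-05) and stood just above the threshold over the set means (adjusted p = 0.0618). In wild type the 2 genes ran in opposite order across sets, with Gsta4 at 8.14 in libraries 1 to 3 and 9.25 in libraries 4 to 6. Gsta2 was lower and not called, at 4.69, 5.32 and 5.73 in null libraries and 5.16, 5.53 and 5.90 in wild-type libraries, and 28.4% of its 100-base transcript windows also occur in near-identical neighbours. With quantile normalization Gsta2 was called lower (-0.63, limma adjusted p = 0.0114 by library), and likewise without null libraries 1 to 3 (-0.61, adjusted p = 0.0331). Gsta1, with 80.6% of its windows shared, stayed below 4 in all 12 libraries and was not tested.

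The mu class is a row of 7 genes on chromosome 3, in the order Gstm5, Gstm7, Gstm6, Gstm3, Gstm2, Gstm1 and Gstm4, and its members did not move together. Gstm5 and Gstm7, at one end, were higher in the null. Gstm5 had 9.18, 9.74 and 10.32 in null libraries, against 8.01, 8.24 and 8.74 in wild-type libraries, a difference of 1.45 (limma adjusted p = 1.72e-04 by library and 0.0826 by set). Gstm5 shares 178 exon bases with the opposite-strand transcript 4933431E20Rik, which differed by 1.93 (limma adjusted p = 3.11e-05 by library and 0.0612 by set), and reads in the shared bases cannot be told apart without strand. Gstm7 had 7.87, 8.57 and 9.11 in null libraries, against 6.75, 7.39 and 7.70 in wild-type libraries, a difference of 1.21 (limma adjusted p = 0.00168 by library and 0.133 by set). Both were highest in null libraries 1 to 3, with set means of 10.28 and 9.20 for Gstm5 and 9.10 and 7.98 for Gstm7 in the null sets. Gstm6, beside Gstm7, went the other way, at 4.66, 5.15 and 6.05 in null libraries and 5.53, 6.43 and 7.14 in wild-type libraries, with overlap between genotypes (difference -1.12, limma adjusted p = 0.00787 by library and 0.193 by set). Without wild-type libraries 4 to 6 the Gstm6 difference was -0.56 and not called (adjusted p = 0.167).

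The abundant mu genes were not called, and their values depended on which wild-type set was used. Gstm2, the mu gene with the highest level per kilobase, had 11.34, 11.44 and 11.65 in null libraries and 11.18, 11.53 and 12.01 in wild-type libraries (difference -0.09), and the sign turned with library totals (0.22), with quantile normalization (0.14) and with the length trend removed (0.37). Gstm1, the gene of a transferase common in liver and many epithelia, had 10.78, 11.14 and 11.39 in null libraries and 10.94, 11.33 and 11.92 in wild-type libraries (difference -0.26, limma adjusted p = 0.248 over the 12 libraries), and its sign also turned with library totals (0.05) and with the length trend removed (0.14). In both genes wild-type libraries 4 to 6 were the high ones, with set means of 11.94 for Gstm2 and 11.79 for Gstm1, above the null sets and above wild-type libraries 1 to 3. Without wild-type libraries 1 to 3 both were called lower by library (-0.46 for Gstm2 and -0.67 for Gstm1, limma adjusted p = 0.00130 and 0.00398). Gstm2 was called higher without wild-type libraries 4 to 6 (0.27, adjusted p = 0.0209) and with the length trend removed (adjusted p = 0.00466). Gstm4 differed by -0.13 and was not called (-0.27 and adjusted p = 0.0135 by library without wild-type libraries 1 to 3), and Gstm3 stayed below 4 in every library and was not tested.

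**Figure D4:**
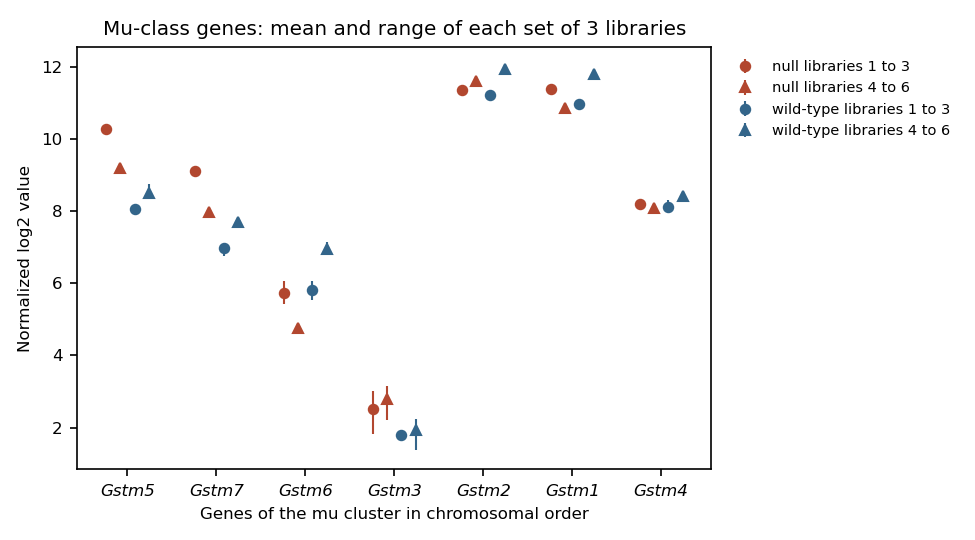
Mean and range (bars) of the normalized log2 value in each set of 3 libraries for the 7 mu-class genes in chromosomal order. The null sets lie above both wild-type sets for Gstm5 and Gstm7, and the sets of the genotypes are interleaved for Gstm2, Gstm1 and Gstm4.

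Theta and zeta genes were lower in the null. Gstt2 of the theta class, which acts on sulfate esters and hydroperoxides, had 8.28, 8.57 and 8.63 in null libraries, against 9.21, 9.59 and 10.20 in wild-type libraries, a difference of -1.10 (limma adjusted p = 4.64e-05 by library and 0.0730 by set). Its neighbours Gstt1 (difference -0.47) and Gstt3 (difference -0.33), on the same stretch of chromosome 10, were called lower over the 12 libraries with adjusted p = 0.00586 and 0.00592, and neither was called over the set means. Gstt3, the theta gene with the highest level per kilobase, had 10.68, 10.80 and 10.86 in null libraries and 10.83, 11.11 and 11.34 in wild-type libraries. With library totals neither Gstt1 (-0.15) nor Gstt3 (-0.02) was called, and with the length trend removed Gstt1 was at 0.00 (adjusted p = 0.984). Gstz1, the zeta gene for maleylacetoacetate isomerase of tyrosine breakdown, lay between 10 and 10.57 with a median of 10.31 in null libraries, against 11.03, 11.21 and 11.28 in wild-type libraries, a difference of -0.88 (limma adjusted p = 1.95e-05 by library and 0.0808 by set). It shares 465 exon bases with Pomt2 on the other strand, which differed by -0.13 and was not called. Gstt4 stayed below 4 in all libraries.

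Kappa, omega, pi and sigma genes each gave a different picture. Gstk1, whose product is found in mitochondria and peroxisomes, had 10.47, 10.95 and 11.44 in null libraries, against 9.39, 9.81 and 10.16 in wild-type libraries, a difference of 1.16 (limma adjusted p = 4.18e-04 by library and 0.0977 by set). It was higher in null libraries 4 to 6 (mean 11.41) than in libraries 1 to 3 (mean 10.48), and without null libraries 1 to 3 the difference was 1.63 and called over the set means as well (adjusted p = 0.00518). Gsto1, an omega-class gene whose product acts as a thiol transferase, had 10.70, 10.87 and 11.16 in null libraries, against 10.46, 10.57 and 10.67 in wild-type libraries. This small difference of 0.33 was called over the 12 libraries (limma adjusted p = 0.00699), and Gsto2, 0.7 kb away, differed by -0.61 (limma adjusted p = 0.00231), neither being called over the set means (adjusted p = 0.311 and 0.235). Gstp1, the pi-class gene, had 9.26, 9.41 and 9.64 in null libraries and 9.35, 9.65 and 10.13 in wild-type libraries, and was not called (difference -0.26), but 25.1% of its transcript windows also occur in Gstp2 or a pseudogene. With library totals the Gstp1 difference was 0.05. It was called lower by library without wild-type libraries 1 to 3 (-0.58, limma adjusted p = 4.45e-04) and higher with the length trend removed (0.26, adjusted p = 0.0113). Gstp2 and Gstp3 stayed below 4. Hpgds, which encodes the sigma-class prostaglandin D synthase of mast cells and other immune cells, had 5.70, 5.91 and 5.98 in null libraries, against 4.61, 5.06 and 5.52 in wild-type libraries (difference 0.80, limma adjusted p = 3.97e-04 by library and 0.160 by set). Beside it, the 8 mast cell markers, of which Ms4a2 and Fcer1a were below the filter, together took 0.00283% to 0.00514% of the normalized total in null libraries and 0.00153% to 0.00224% in wild-type libraries. The markers were not alike. Over the 12 libraries 4 were called higher, with Kit the furthest (difference 1.96), Hdc was called lower (-0.33) and Tpsb2 was not called. Kit averaged 8.52 and 6.86 in the null sets, where Hpgds averaged 5.91 and 5.86.

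The gamma-glutamyl transferases were higher in the null, in different libraries. Ggt1, the main cell-surface enzyme of glutathione breakdown, had 11.77, 12.04 and 12.36 in null libraries, against 10.91, 11.06 and 11.16 in wild-type libraries. Its difference of 1.01 was called over the 12 libraries only (limma adjusted p = 9.88e-06 by library and 0.0709 by set), and it was 1.27 without null libraries 1 to 3 (adjusted p = 0.0185 over the set means). Ggt5, whose product splits leukotriene C4, had 5.14, 6.84 and 7.99 in null libraries and 4.52, 5.34 and 5.66 in wild-type libraries, with null libraries 1 to 3 far above the rest. Their mean was 7.89, while null libraries 4 to 6 averaged 5.45, against 4.86 and 5.47 in the wild-type sets. The difference of 1.50 (limma adjusted p = 0.0210 by library and 0.227 by set) was 0.28 without null libraries 1 to 3 and not called (adjusted p = 0.405). Ggt7 followed a like pattern, with 5.85, 6.91 and 8.03 in null libraries and 4.59, 5.42 and 5.69 in wild-type libraries and null set means of 7.90 and 5.94 (difference 1.60, limma adjusted p = 0.00443 by library and 0.151 by set). Ggt6 had a value of 4 or more in only 5 libraries and was not tested, and Ggct, whose product releases 5-oxoproline from gamma-glutamyl amino acids, differed by 0.16 and was not called. By library it was called with library totals (0.47, limma adjusted p = 0.0181) and without null libraries 1 to 3 (0.48, adjusted p = 0.00361).

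Glutaredoxins also split. Glrx5, the mitochondrial glutaredoxin of iron-sulfur cluster transfer, had 8.62, 8.85 and 9.11 in null libraries, against 9.49, 9.86 and 10.33 in wild-type libraries, a difference of -1.04 (limma adjusted p = 1.03e-04 by library and 0.0873 by set). Glrx3, a cytosolic iron-sulfur glutaredoxin and the one with the highest level per kilobase, had 8.50, 8.83 and 9.22 in null libraries and 9.07, 9.32 and 9.78 in wild-type libraries (difference -0.49, limma adjusted p = 0.0167 by library and 0.274 by set). It was no longer called with library totals (-0.18) or with the length trend removed (-0.20). Glrx, the dithiol enzyme of the cytosol, was higher (difference 0.78, limma adjusted p = 0.0159 by library and 0.248 by set), through null libraries 1 to 3, which averaged 8.59 where null libraries 4 to 6 averaged 7.39 and the wild-type sets 7.35 and 7.06. Without null libraries 1 to 3 the Glrx difference was 0.18 (adjusted p = 0.258). Glrx2 differed by -0.16 and was not called. By library it was called without wild-type libraries 1 to 3 (-0.28, limma adjusted p = 0.0105), without null libraries 4 to 6 (-0.27, adjusted p = 0.0176) and without null library 5 alone (-0.19, adjusted p = 0.0486).

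The make-up of the GST transcripts was compared within each library as the share of each class in the sum of all 26 GST genes, each on the linear scale per kilobase of transcript, a ratio that no scaling of libraries can change. The mu class was the largest in every library, at 30.6%, 35.6% and 39.8% of the sum in the lowest, median and highest null library and 35.7%, 39.7% and 44.2% in wild-type libraries. The alpha class took 12.5%, 13.5% and 14.8% in null libraries, against 5.14%, 5.68% and 6.11% in wild-type libraries, with no overlap. Kappa (Gstk1 alone) took 9.26%, 13.2% and 17.3% in null libraries, against 6.17%, 6.68% and 7.19% in wild-type libraries, and the microsomal genes took 8.56%, 9.02% and 9.80%, against 5.38%, 6.52% and 7.51%. In the other direction the theta class took 8.15%, 9.16% and 9.70% in null libraries, against 14.5%, 14.7% and 14.9% in wild-type libraries, and zeta (Gstz1) took 3.78% to 5.39%, against 8.39% to 11.2%. The pi class took 4.66%, 5.10% and 5.84% in null libraries, against 6.58%, 7.12% and 7.76% in wild-type libraries. Omega shares overlapped. These shares describe the libraries and were not tested.

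**Figure D5:**
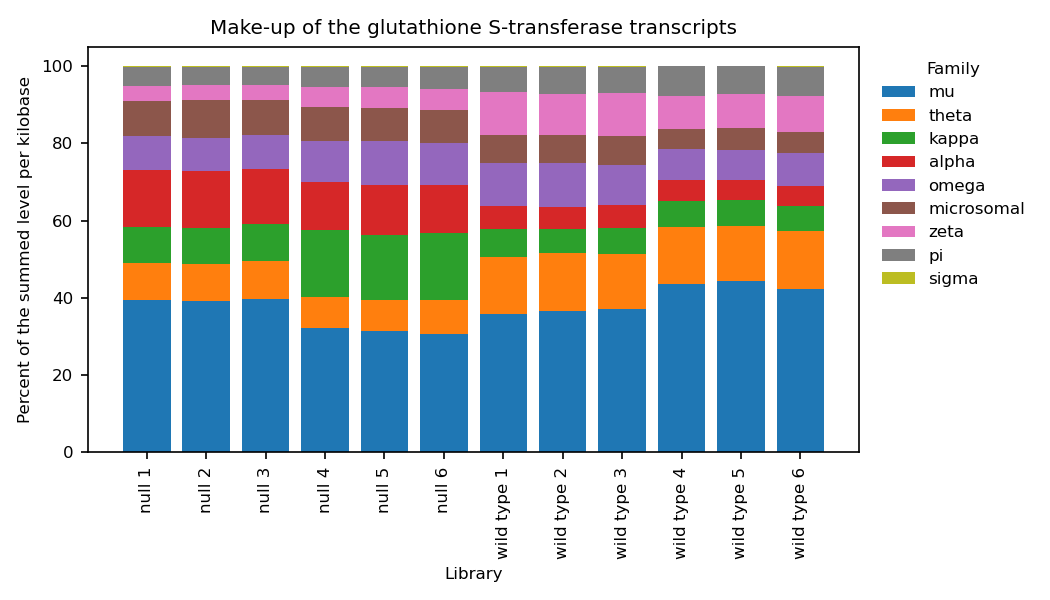
Share of each GST class in the summed level per kilobase of the 26 GST genes, 1 bar per library, null left of wild type. Alpha and kappa shares are larger and theta and zeta shares smaller in all 6 null libraries than in any wild-type library.

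Per kilobase, the order of single genes differed between genotypes and, for Gstk1, also between the null sets. On the linear scale Gstm2 was the highest GST in both, at 2700 ± 268 normalized units per kilobase in null libraries and 2960 ± 827 in wild-type libraries (SD, n = 6 each). Over the 6 null libraries Gstk1 came next at 2240 ± 766, above Gstm1 at 1750 ± 349, although their spreads overlap. That order came from null libraries 4 to 6, with mean shares of the GST sum of 17.2% for Gstk1, 17.1% for Gstm2 and 8.4% for Gstm1. In null libraries 1 to 3 Gstk1 (9.4%) was below Gstm1 (12.6%), as in wild type. In wild type Gstk1 was at 965 ± 194 and below Gstm1 (2160 ± 674), Gstz1 (1400 ± 92.2) and Gsto1 (1290 ± 64.0). Gsta4 was at 1330 ± 108 in null libraries and 456 ± 186 in wild-type libraries, and Mgst1 at 1030 ± 71.3 in null libraries and 302 ± 16.7 in wild-type libraries. Among the synthesis genes Gss, Gclm and Gclc were at 281 ± 28.5, 397 ± 38.8 and 359 ± 58.4 in null libraries, while in wild-type libraries they were at 890 ± 123, 307 ± 8.48 and 222 ± 18.1. Gss was thus the highest of the 3 in wild type and the lowest in the null.

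Genes around this system were taken from 3 lists. The list of glutathione supply holds 21 genes for the supply of its amino acids or the breakdown of glutathione and its products, inside or outside the cell. Of these, 18 were tested, and 7 were called higher and 9 lower over the 12 libraries. This is 88.9% called, against 65.9% of all genes (34.1% higher and 31.8% lower). Both fits called 2 of them lower (1.93% of all genes). Chac1, a gamma-glutamyl cyclotransferase that degrades glutathione and is a target of ATF4, had 5.77, 6.37 and 6.87 in null libraries, against 8.56, 8.71 and 8.84 in wild-type libraries. Chac1 fell by 2.35 (SE 0.38; limma adjusted p = 1.11e-06 by library and 0.0290 by set). Slc1a4, a neutral amino acid carrier, had 7.15, 7.40 and 7.70 in null libraries, against 9.12, 9.15 and 9.25 in wild-type libraries, and fell by 1.76 (SE 0.24; limma adjusted p = 1.99e-08 by library and 0.0203 by set). Neither gene overlapped between genotypes. Slc7a11, the cystine carrier subunit, had 5.96, 6.38 and 6.50 in null libraries, against 6.63, 6.95 and 7.20 in wild-type libraries (difference -0.64, limma adjusted p = 0.00117 by library and 0.205 by set).

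Of 25 genes of glutathione use and export, 22 were tested, and 6 were called higher and 12 lower over the 12 libraries (81.8% called, against 34.1% of all genes higher and 31.8% lower), with 2 higher and 2 lower in both fits (4.09% of all genes in either direction). Abcc2, an apical pump for glutathione conjugates, had 2.77, 3.70 and 4.06 in null libraries, against 5.68, 6.31 and 6.88 in wild-type libraries. It passed the filter through its wild-type libraries and was called lower by both fits (limma adjusted p = 2.34e-06 by library and 0.0216 by set), but its null values lie about the filter value of 4, so the size of the fitted difference (-2.78) is uncertain. Hagh, the glyoxalase that releases glutathione from lactoylglutathione, had 8.95, 9.06 and 9.26 in null libraries, against 10.14, 10.16 and 10.25 in wild-type libraries, and fell by 1.09 (SE 0.19; limma adjusted p = 3.16e-08 and 0.0375). Abcc5, a pump for organic anions and cyclic nucleotides, had 9.46, 9.69 and 9.95 in null libraries, against 7.60, 8.00 and 8.47 in wild-type libraries, and rose by 1.68 (SE 0.29; limma adjusted p = 2.14e-06 and 0.0354). In these 3 genes the genotypes were apart in every library. Clic4, a chloride channel protein with a GST-like fold, had 12.24, 12.55 and 12.86 in null libraries, against 10.66, 11.03 and 11.36 in wild-type libraries, and rose by 1.53 (SE 0.30; limma adjusted p = 5.51e-06 and 0.0479).

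Of 29 regulators and targets of NRF2 outside the GST and synthesis genes, 28 were tested, and limma called 7 higher and 14 lower by library, against 34.1% higher and 31.8% lower among all genes. By set it called 0, and 13 had an unadjusted p under 0.05 there, as did 5041 of all 16197 genes. The regulators themselves differed in opposite directions. Nfe2l2, the NRF2 gene, had 10.17, 10.37 and 10.58 in null libraries, against 9.61, 9.80 and 9.93 in wild-type libraries (difference 0.59, limma adjusted p = 1.66e-04 by library and 0.132 by set). Keap1, whose product directs NRF2 to degradation, had 9.75, 9.90 and 9.94 in null libraries, against 10.23, 10.33 and 10.42 in wild-type libraries (difference -0.45, limma adjusted p = 1.07e-05 by library and 0.148 by set). Nqo1, a quinone reductase often used as a readout of NRF2, had 6.48, 6.97 and 7.58 in null libraries and 6.02, 6.34 and 6.59 in wild-type libraries (difference 0.67, limma adjusted p = 0.0113 by library and 0.259 by set). Its null set means were 7.45 and 6.55. Hmox1, heme oxygenase, was not called, at 6.77, 7.21 and 7.67 in null libraries and 6.77, 6.96 and 7.13 in wild-type libraries (difference 0.26). Among the other regulators, Bach1 (difference 0.86) was called higher and Mafk (-0.63) and Nfe2l1 (-0.20) lower over the 12 libraries. Mafg and Maff were not called. Targets called lower by library included Fth1 (-0.90), Osgin1 (-0.87), Sqstm1 (-0.86) and Cbr1 (-0.83). Those called higher included Aox1 (1.08), Abcc1 (0.89) and Srxn1 (0.69). The list medians were -0.33 for supply, -0.36 for use and export and -0.17 for NRF2 genes, beside 0.05 for all genes tested.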

How the data were processed

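Poly-A RNA from 12 prostate samples was sequenced on an Illumina HiSeq2000, per the labels' protocols. The submitters' processing notes list CASAVA 1.8.2, TopHat, Cufflinks, DESeq, mm9 and GRCm38.p2 but assign no step to any of them. The deposited table holds log2 values that the authors had already normalized between libraries, 1 per Ensembl gene. Symbols, positions and lengths (longest principal transcript) came from GENCODE M21 on GRCm38, which held 37607 of the 39179 IDs (96.0%). Depth was estimated from high values, whose linear scale steps by whole reads within 0.1. Lower values do not, so no count test was possible and intervals from counts are not given.

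The filter kept the 16197 genes that reached 4 in no fewer than 6 libraries. They were fitted with limma 3.58.1 (trend, two-sided) in R 4.3.3, over 12 libraries and over 4 set means. The sets came from average-linkage clustering within each genotype. Python 3.11.15 was used for summaries. The scripts were tested on simulated data, in which the libraries were independent and did not form sets as they do here. Shared sequence is the share of 100-base windows of a gene's GENCODE transcripts found exactly in another gene. Lowest, median and highest libraries are printed for genes called by both fits, Gclc, Gclm, Gss, Gsr, the 10 largest other non-overlapping calls and the highest gene per kilobase of each family. Outside the members they are printed for 5 NRF2-related genes and for genes called by both fits. Gsta2, Gstm1, Gstm6, Mgst3, Ggt5 and the overlapping genes were added after their values were seen. Members and lists were chosen with earlier results of these data known. The targeted gene is not reported here.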

Additional observations from a re-analysis of the deposited data

Results flagged for a closer look

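In each genotype the highest and lowest of 6 libraries were compared with their nearest neighbour for all 39 genes, 78 groups in all, and 2 libraries stood apart, where chance flags about 1 in 20 groups. Ggct was at 8.45 in wild-type library 4 and between 7.98 and 8.14 in the other wild-type libraries. Ggt7 was at 4.59 in wild-type library 2 and between 5.32 and 5.69 in the others.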

How the results depend on the processing

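Of the 24 genes called over the 12 libraries, 23 kept their sign and 14 also stayed called in every one of the 28 alternatives that tested them. A minimum value of 6 left Ggt5, Ggt7, Gstm6, Gsto2 and Hpgds untested. The exception in sign was Gstt1, at 0.00297 with the length trend removed. Scaling to library totals moved the median difference of all genes to 0.37 and leaving the 50 most abundant genes out of the totals moved it to 0.20, from 0.05, so values under these scalings are relative to those shifts. With totals the calls over the 12 libraries were 8611 higher and 2608 lower, and without the top 50 they were 6804 and 4034, against 5518 and 5152 as reported. Over the set means 662 genes were called, 1941 with library totals (1654 higher and 287 lower), 400 without trend, 90 at an adjusted p of 0.01, 217 and 6 without wild-type set 1 and set 2, and 3199 without null set 2. For the glutathione and GST genes the count over the set means was 4, with 9 for library totals, 2 without the top 50, 0 at an adjusted p of 0.01 (limma, 15 at an unadjusted p under 0.05), 2 without wild-type set 1, 0 without wild-type set 2 (11 unadjusted), 7 without null set 1 and 14 without null set 2. With a set left out, the lone mean is assumed to vary like the other genotype's. With the set as a random block 5052 genes and 15 of the glutathione and GST genes were called over the 12 libraries. Leaving out each library gave 9923 to 10637 and 586 to 715 genes, and 24 to 25 and 3 to 4 glutathione and GST genes, over libraries and set means. Removing the length trend gave 17 calls higher and 5 lower among them by library, and 5862 higher and 4361 lower among all genes.

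Signs also turned in genes not called over the 12 libraries as reported. With library totals Gsta2 was at 0.0451, Glrx2 at 0.16, Mgst3 at 0.27, Gstm1 at 0.0496, Gstm2 at 0.22, Gstm4 at 0.19 and Gstp1 at 0.0548. Without the top 50, Mgst3 was at 0.11, Gstm2 at 0.0526 and Gstm4 at 0.0189. Upper-quartile centring put Mgst3 at 0.0353 and quantile normalization put Gstm2 at 0.14. The length correction put Gsta2 at 0.24, Mgst3 at 0.41, Gstm1 at 0.14, Gstm2 at 0.37, Gstm4 at 0.16 and Gstp1 at 0.26. Without wild-type set 2, Gsta2 was at 0.00803, Gstm1 at 0.14, Gstm2 at 0.27, Gstm4 at 0.0145 and Gstp1 at 0.0638. Without null set 1, Mgst3 was at 0.0326 and Gstm2 at 0.0281, and without null set 2, Gsta2 was at 0.0723, Ggct at -0.16 and Gsr at -0.0354. Causes were not tested. No paired analysis was possible because the labels give the libraries no replicate numbers. Genes that did not reach 4 in 6 libraries were not tested, and low values in 1 genotype, as for Abcc2 and Mgst2, limit the size of a difference.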
